A study of Mus musculus with 27 samples.

Results

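The ErbB receptors and the neuregulins were followed through RNA-seq libraries of sorted nuclei from mouse motor cortex. The members are the 4 receptor genes Egfr, Erbb2, Erbb3 and Erbb4 and the 4 neuregulin genes Nrg1, Nrg2, Nrg3 and Nrg4, found by symbol, and they are 8 of 39338 genes and added sequences in the table. The set was selected on these data, since Erbb3 was already known to be among the strongest differences between genotypes. All differences of Erbb3 between groups are therefore given as a description with no test, and counts of called genes cover the other 7 members.

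Neuregulins are growth factors, made largely by neurons in the brain, whose EGF-like domain binds Erbb3 or Erbb4. Binding pairs the receptors, most often with Erbb2, which has no known ligand of its own, while Erbb3 has little kinase activity and signals through its partner to the PI3K-Akt pathway. In the cortex, Erbb4 is known for its place in inhibitory interneurons, and Erbb3 is found mainly in cells of the oligodendrocyte lineage, the myelin-forming glia. Egfr, the receptor of EGF and transforming growth factor alpha, is not a neuregulin receptor on its own.

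The libraries came from 15 C9-BACexp mice and 12 C57BL/6J littermates, 1 library per mouse. The transgenic strain, listed as C57BL/6J-Tg(C9ORF72_i3)112Lutzy/J, carries a bacterial artificial chromosome with human C9ORF72 and its expanded hexanucleotide repeat. The nuclei were sorted for EGFP-KASH, a green fluorescent protein anchored at the nuclear envelope, which every mouse of all 6 groups received from an AAV under the ubiquitous CAG promoter, so the sort marks transduction and not a cell type. Mice with crRNA-13 (6 C9-BACexp, 3 C57BL/6J) also received the Cas13 effector RfxCas13d-N2V8, likewise driven by CAG, with a crRNA against the repeat-containing RNA. Mice with NTG (6 C9-BACexp, 5 C57BL/6J) received the effector with a non-targeted crRNA, although their labels name the parental RfxCas13d. Mice with EGFP-KASH only (3 C9-BACexp, 4 C57BL/6J) received no effector. Mice given an effector were injected at 6 weeks of age and their nuclei taken 2 months later. The age of the EGFP-KASH only mice is not stated in the sources used here.

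The libraries held 21508829 to 36777972 counts each, and neuronal marker genes, given in CPM (estimated counts scaled to a common library size), were present in all of them, from 726.2 to 1650.9 CPM for Rbfox3, which encodes NeuN. Defining markers of oligodendrocytes were also present in every library, from 194.0 to 1703.1 CPM for Mbp and from 5.54 to 101.0 for Mog. Adora2a, a gene of striatal projection neurons, ranged from 0 to 44.8 CPM, with 2 libraries at 0, and the sum of the 12 striatal markers was highest in C9-BACexp NTG replicate 6 (8869.0 CPM) and C9-BACexp EGFP-KASH only replicate 3 (4183.4 CPM). Counts of called genes were therefore also computed without those 2 libraries. So were the fold changes of Erbb3, of called members and of the largest member per comparison. Relations to marker lists and calls of markers were not. All samples are bulk nuclei, in which fewer cells of a type and less RNA per cell cannot be told apart.

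All 8 members passed the filter on low counts, so none was lost. The receptors spanned a wide range of counts. Erbb4, on mouse chromosome 1 (chr1:68071345-69147619, minus strand), had 7048 to 27253 counts per library. Egfr (chr11:16702198-16868158, plus strand) had 481 to 1404, Erbb3 (chr10:128403392-128425811, minus strand) 79 to 1686 and Erbb2 (chr11:98303203-98328542, plus strand) only 12 to 86. Among the ligands, Nrg1 (chr8:32303906-33374825, minus strand) had 46796 to 96980 counts, Nrg3 (chr14:38087063-39196036, minus strand) 55026 to 105420, Nrg2 4234 to 13148 and Nrg4 (chr9:55121336-55234128, minus strand) 11 to 310. Coordinates are those of the whole genes in GRCm39, introns included, as annotated in GENCODE M39. Counts are not corrected for length and include unspliced RNA, so they set the precision of each gene and do not rank the genes by abundance. Within groups, the standard deviation of log2(CPM + 0.5) ran from 0.22 for Nrg1 and 0.23 for Nrg3 to 0.77 for Erbb3 and 0.95 for Nrg4. Egfros, Eldr and Nrg3os lie antisense to Egfr or Nrg3 and had at most 11, 47 and 233 counts.

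Erbb3 had the widest spread of the receptors. In C57BL/6J mice it stood at 3.78, 7.24, 13 and 15.5 CPM with EGFP-KASH only, at 3.51, 5.41, 6.87, 10.1 and 20.1 CPM with NTG and at 9.09, 12.8 and 14.1 CPM with crRNA-13. In C9-BACexp mice it stood at 15.8, 19.1 and 24.9 CPM with EGFP-KASH only, ran from 13.6 to 29.3 CPM with a median of 15 with NTG, and from 7.28 to 55.9 CPM with a median of 13.6 with crRNA-13. With EGFP-KASH only, the genotypes did not overlap, with all 3 C9-BACexp libraries above all 4 C57BL/6J libraries. Erbb3 was selected on genotype differences, and the share of all genes that separate in this way was not counted. With NTG, 4 of 5 C57BL/6J libraries lay below every C9-BACexp library and replicate 5, at 20.1 CPM, lay among them. With crRNA-13, 2 of 6 C9-BACexp libraries lay above all 3 C57BL/6J libraries and 2 lay below all of them. Ordered by mean CPM, the groups ran from C57BL/6J NTG at 9.21 ± 6.56 (SD, n = 5) through C57BL/6J EGFP-KASH only (9.87 ± 5.33, n = 4), C57BL/6J crRNA-13 (12 ± 2.59, n = 3), C9-BACexp NTG (18.0 ± 6.06, n = 6) and C9-BACexp EGFP-KASH only (19.9 ± 4.60, n = 3) to C9-BACexp crRNA-13 (20.3 ± 18.4, n = 6). The ranges of each pair of neighbours in this order overlapped.

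**Figure D1:**
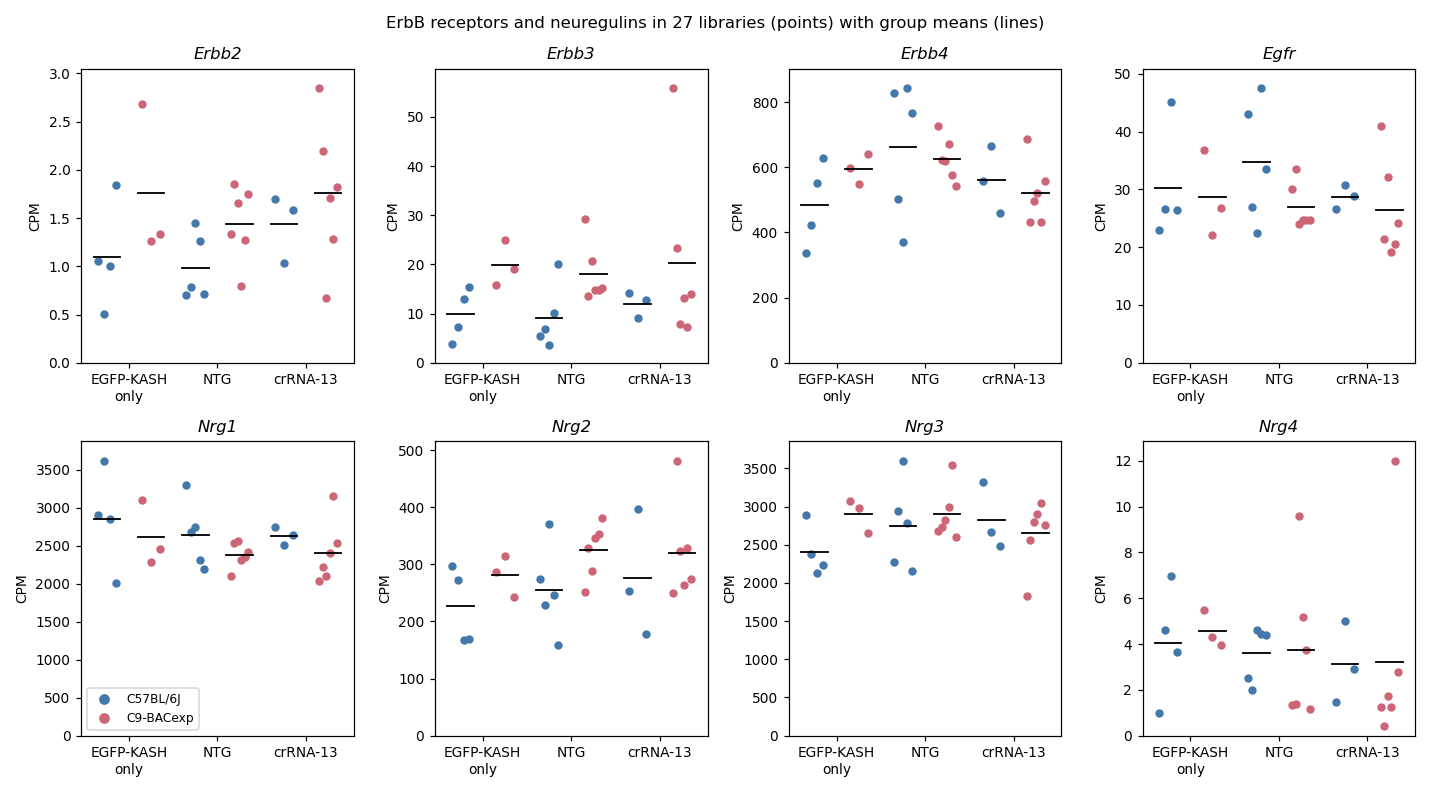
CPM (linear axes from 0) of the 8 genes in each of the 27 libraries, by treatment, with C57BL/6J in blue and C9-BACexp in red; black lines are group means. The C9-BACexp crRNA-13 library at 55.9 CPM of Erbb3 stands above the rest, and with EGFP-KASH only the genotypes are apart in Erbb3. That gene was selected on genotype differences.

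Across the libraries Erbb3 moved with the markers of oligodendrocytes. The summed CPM of 18 oligodendrocyte markers, which do not include Erbb3, ran from 445.6 to 5854.9, lowest and highest in the libraries that were lowest and highest in Erbb3. Within groups, the deviations of Erbb3 from its group mean followed those of this sum with Pearson's r = 0.98 and Spearman's rho = 0.95 over 27 libraries (both p = 1.0e-05, the smallest that 100000 permutations within groups can give; adjusted p = 3.6e-04 over 72 relations). Without the libraries farthest from the median of the sum, C9-BACexp crRNA-13 replicate 1 and C57BL/6J NTG replicate 5, r was 0.97. Erbb3 passed the adjusted limit for r with 4 other lists. It rose with the microglial markers (r = 0.75, rho = 0.63, permutation p = 3.2e-04 and 0.00449, adjusted p = 0.00329 and 0.0283, 0.69 without the 2 farthest libraries). It fell as the general neuronal markers rose (r = -0.86, rho = -0.71, permutation p = 5.0e-05 and 8.6e-04, adjusted p = 0.0012 and 0.00885, -0.74 without the 2), and likewise against those of oligodendrocyte precursors (r = -0.75, rho = -0.69, permutation p = 4.9e-04 and 8.1e-04, adjusted p = 0.00392 and 0.00885, -0.59 without the 2). The defining precursor markers were low, Pdgfra at 0.392 to 2.11 CPM and Cspg4 at 0.359 to 2.89 CPM, in a sum of 831.0 to 1345.7 CPM. The defining microglial markers were low too, Cx3cr1 at 0.335 to 3.77 CPM and P2ry12 at 0.0958 to 4.71 CPM. The microglial sum was 29.9 to 130.4 CPM. Relations to the precursor and microglial lists, here and below, therefore rest mostly on their other genes. With excitatory neurons only r passed (r = -0.57, rho = -0.50, permutation p = 0.00892 and 0.0212, adjusted p = 0.0357 and 0.0789, -0.39 without the 2). While Erbb3 varied 15.9-fold between the lowest and the highest library, Erbb3 per 1000 CPM of the marker sum varied 1.52-fold, from 6.90 to 10.5. Its group means were 8.37 ± 0.774, 8.35 ± 0.501 and 8.60 ± 1.71 in C57BL/6J mice and 9.33 ± 0.384, 8.87 ± 0.758 and 8.65 ± 1.15 in C9-BACexp mice (SD; EGFP-KASH only, NTG and crRNA-13 in that order). Set against the marker sum, the genotypes overlapped with NTG, where the ratio ran from 7.85 to 9.05 in C57BL/6J and from 7.94 to 10.0 in C9-BACexp mice. They also overlapped with EGFP-KASH only and with crRNA-13.

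The genes whose within-group deviations were most like those of Erbb3 among the 13248 genes whose mean reached 1 CPM included Gjc3 (r = 0.98), Pde4b (0.98), Dock10 (0.98) and Gpr37 (0.97). Gjc3, a connexin of myelinating glia, is on the oligodendrocyte list. The libraries share their totals across genes, and these values describe likeness only.

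**Figure D2:**
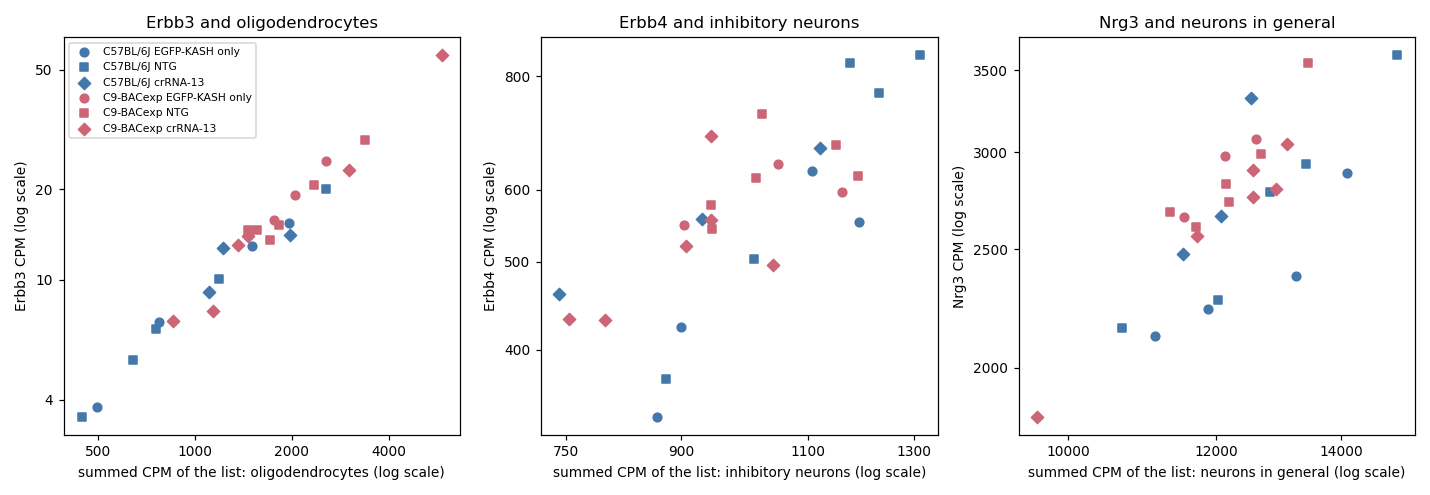
CPM of Erbb3, Erbb4 and Nrg3 against the summed CPM of oligodendrocyte, inhibitory neuron and general neuron markers (log axes), 1 point per library, with color for genotype and shape for treatment. Erbb3 lies along a single line through all 6 groups, from 3.51 to 55.9 CPM.

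Of the other receptors, Erbb4 and Egfr were related most closely to inhibitory neurons. Erbb4, which pairs with neuregulins in interneurons, followed the 12 inhibitory neuron markers (r = 0.80, rho = 0.77, permutation p = 9.0e-05 and 2.0e-04, adjusted p = 0.00162 and 0.0036, 0.74 without the 2 farthest libraries). Erbb4 also passed for r with the oligodendrocyte list (r = 0.61, rho = 0.49, permutation p = 0.00888 and 0.0355, adjusted p = 0.0357 and 0.111, 0.53 without the 2). Against oligodendrocyte precursors (r = -0.63, rho = -0.61, permutation p = 0.00124 and 0.00349, adjusted p = 0.00893 and 0.0251, -0.50 without the 2) and neurons in general (r = -0.68, rho = -0.63, permutation p = 0.0022 and 0.00508, adjusted p = 0.0122 and 0.0283, -0.64 without the 2) it passed for both measures. Egfr also followed the inhibitory list (r = 0.70, rho = 0.72, permutation p = 2.1e-04 and 7.0e-05, adjusted p = 0.00252 and 0.00168, r again 0.70 without the 2 farthest), and for r alone it ran against neurons in general (r = -0.58, rho = -0.54, permutation p = 0.0136 and 0.014, adjusted p = 0.049 and 0.0632, -0.53 without the 2). The inhibitory sum ran from 742.0 to 1311.8 CPM. Its defining markers Gad1 (45.0 to 106.4 CPM) and Gad2 (24.8 to 78.2 CPM), which make the transmitter GABA, were a minor part of it. Erbb2 passed the adjusted limit with none of the 9 lists, and with the oligodendrocyte list r was 0.37 and rho 0.45 (permutation p = 0.115 and 0.037, adjusted p = 0.23 and 0.111).

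Among the ligands, Nrg3 followed the general neuronal markers (r = 0.94, rho = 0.94, both permutation p = 1.0e-05, adjusted p = 3.6e-04, 0.91 without the 2 farthest) and the excitatory ones (r = 0.74, rho = 0.72, permutation p = 4.1e-04 and 3.6e-04, adjusted p = 0.00369 and 0.00518, 0.64 without the 2 farthest). It ran against microglia (r = -0.74, rho = -0.67, permutation p = 1.9e-04 and 0.00123, adjusted p = 0.00252 and 0.0111, -0.65 without the 2) and oligodendrocytes (r = -0.68, rho = -0.59, permutation p = 0.00191 and 0.00511, adjusted p = 0.0115 and 0.0283, -0.48 without the 2), and with oligodendrocyte precursors r alone passed (r = 0.57, rho = 0.43, permutation p = 0.0116 and 0.0409, adjusted p = 0.044 and 0.117, 0.28 without the 2). Nrg2 passed both measures with the oligodendrocyte precursor markers (r = 0.56, rho = 0.63, permutation p = 0.00677 and 0.00315, adjusted p = 0.0305 and 0.0251, 0.50 without the 2). It followed the excitatory markers by Pearson's r alone after adjustment (r = 0.63, rho = 0.48, permutation p = 0.00183 and 0.0246, adjusted p = 0.0115 and 0.0845, 0.46 without the 2 farthest), as it did the general neuronal ones (r = 0.60, rho = 0.52, permutation p = 0.00633 and 0.0181, adjusted p = 0.0304 and 0.0768, 0.50 without the 2). Nrg1 ran against the oligodendrocyte sum (r = -0.64, rho = -0.58, permutation p = 0.00469 and 0.00683, adjusted p = 0.0241 and 0.0351, -0.57 without the 2 farthest). Nrg4 passed with no list. In all, 20 of 72 relations passed the adjusted limit of 0.05 for r, and 14 passed it for both measures. Between members, as a description, r was -0.71 for Erbb3 and Nrg3, -0.60 for Erbb3 and Nrg1, -0.58 for Erbb3 and Nrg2, and 0.68 for Erbb4 and Egfr. The values of a library are shares of a common total.

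**Figure D3:**
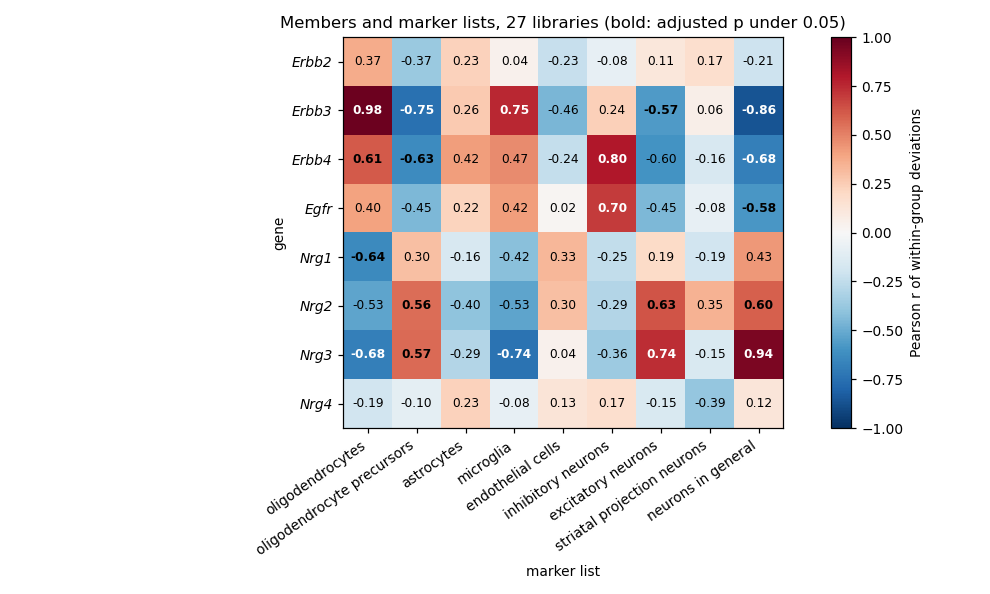
Pearson's r between the within-group deviations of each gene and of each summed marker list over 27 libraries (color from -1 in blue to 1 in red), in bold where the adjusted p was under 0.05. Erbb3 with oligodendrocytes (0.98) and Nrg3 with neurons in general (0.94) are the strongest.

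By nearest genes the members also separated. Those of Erbb4 were Nxph1 (r = 0.84), a neurexin ligand known from interneurons, Wtap (0.84) and Mdm4 (0.83). Those of Nrg2 were Scn8a (0.92), a neuronal sodium channel, Xkr6 (0.91) and Abl2 (0.91). Those of Nrg3 were Tle2, Man2c1 and Cdk10 (all 0.91). The nearest genes of Egfr were Pcyt1a (0.78), Tlcd1 (0.76) and Pde11a (0.73), and those of Nrg1 were Usp43 (0.77), Adamts18 (0.73) and Rgp1 (0.73). Erbb2 was nearest to Pcf11 (0.74), Tpd52 (0.70) and Spr (0.69), and Nrg4 to Asph (0.68), Faim (0.66) and Kcnip4 (0.65). These are weaker likenesses than those of Erbb3.

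To ask how the repeat-carrying transgene altered the family, C9-BACexp mice were compared with C57BL/6J mice under the same treatment, by the robust quasi-likelihood test of edgeR with 4 factors of unwanted variation. A gene was called when its fold change passed 1.2 with an adjusted p below 0.05. The description for Erbb3 was a log2 fold change of 1.16 (SE 0.12) with NTG, 1.17 (SE 0.15) with EGFP-KASH only, 0.37 (SE 0.14) with crRNA-13 and 0.90 (SE 0.08) averaged over the 3 treatments. Without the factors these were 0.97 (SE 0.47), 1.00 (SE 0.58), 0.76 (SE 0.56) and 0.91 (SE 0.31), so the differences stayed of similar size, apart from crRNA-13, while their SE grew by several times. The value with crRNA-13 rested on 1 library, and was 0.01 without C9-BACexp crRNA-13 replicate 1. The Erbb3 difference with crRNA-13 was lower than that with NTG by a log2 value of -0.79 (SE 0.18), and without factors by -0.22 (SE 0.71).

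The oligodendrocyte markers moved beside Erbb3 in these comparisons. Erbb3 was selected on genotype differences and followed these markers within groups, so their calls are not independent of that selection. Of 18 markers, 16 were called higher with NTG (median log2 fold change 1.14), 10 with EGFP-KASH only (1.11), 1 with crRNA-13 (0.39) and 18 in the average (0.83), and none was called lower. Without the factors 0, 0, 0 and 1 of the 18 were called, with medians of 0.86, 0.88, 0.78 and 0.81. Of all genes tested, 6.59%, 2.86%, 1.08% and 9.76% were called with the factors, with medians of 0.02, -0.03, -0.00 and -0.02. Their summed level was 445.6 to 2563.9 CPM in C57BL/6J NTG and 1465.1 to 3367.9 CPM in C9-BACexp NTG libraries, 497.5 to 1958.1 and 1762.0 to 2557.1 CPM with EGFP-KASH only, and 1104.6 to 1980.9 and 857.3 to 5854.9 CPM with crRNA-13. No defining marker of this list was at 0 in any library. Other lists moved as well. In the average, 9 of 12 astrocyte markers (median -0.46) and 5 of 10 endothelial markers (-0.74) were called lower, and 5 of 12 striatal markers (0.84) higher, of which 3, 0 and 4 were called without factors. The average also held 2 higher and 1 lower of 10 precursor markers, and 1 lower of 12 excitatory markers. Without factors 0 and 1 of these lists were called. With NTG the striatal median was 1.54, with 4 of 12 called higher, and 3 of 12 astrocyte markers were called lower (-0.59). Also with NTG, 2 precursor markers were called higher, and 1 excitatory marker higher and 2 lower. The inhibitory and general neuronal lists each held 1 lower call with NTG. None of these NTG calls was made without factors. With EGFP-KASH only, 2 of 8 general neuronal and 1 of 10 endothelial markers were called lower and 1 of 10 precursor markers higher. With crRNA-13, 2 of 12 astrocyte markers were called lower. Without factors these calls were not made either. The endothelial sum was low, 14.0 to 54.0 CPM. The part of any of these cells in the Erbb3 values was not tested.

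None of the other 7 members was called with NTG, where 6.59% of 21768 genes were called. Their log2 fold changes lay between -0.34 (Egfr) and 0.57 (Erbb2), with adjusted p from 0.138 to 0.925, and 1 of 7 had an unadjusted p under 0.05 (Nrg2, 0.37, SE 0.13). With EGFP-KASH only, where 2.86% of genes were called, none of the 7 was called in edgeR (adjusted p from 0.113 to 0.935) or limma-trend and 1 in DESeq2. That gene was Nrg3, with 0.28 (SE 0.09, adjusted p = 0.113) in edgeR and 0.29 (adjusted p = 0.0422) in DESeq2, and it was also called in edgeR without C57BL/6J EGFP-KASH only replicate 2 (0.36, adjusted p = 0.0458). With crRNA-13, where 1.08% of genes were called, none was called and none had an unadjusted p under 0.05 (adjusted p from 0.524 to 0.885). Neither limma-trend nor DESeq2 with 4 factors called any of the 7 with NTG or crRNA-13. Leaving out a single C57BL/6J library made Nrg2 a call in 3 cases, with NTG without NTG replicate 3 (0.51, adjusted p = 0.0475) or crRNA-13 replicate 2 (0.37, adjusted p = 0.0493), and with crRNA-13 without crRNA-13 replicate 2 (0.55, adjusted p = 0.0330).

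**Figure D4:**
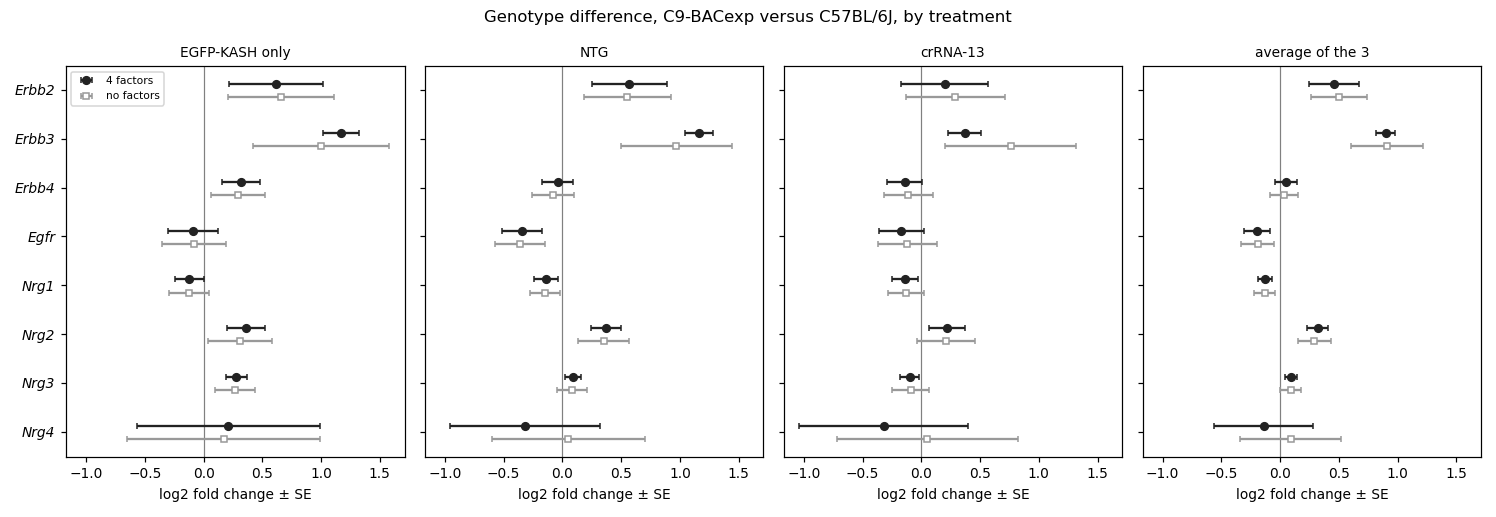
Log2 fold change ± SE of each gene in C9-BACexp against C57BL/6J mice, for each treatment and their average, from edgeR with 4 factors (filled) and with none (open). Erbb3 is at 1.17, 1.16 and 0.37 in the 3 treatments, and the other receptors and ligands lie closer to 0.

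Nrg2 was the 1 other member called in the genotype difference averaged over the 3 treatments, where 9.76% of genes were called. It was higher in C9-BACexp mice by a log2 fold change of 0.32 (SE 0.09, adjusted p = 0.0143). Its levels were 166.8, 170.0, 273.1 and 296.8 CPM with EGFP-KASH only, 159.0, 228.9, 245.6, 273.8 and 369.9 CPM with NTG and 178.3, 252.6 and 397.8 CPM with crRNA-13 in C57BL/6J mice. In C9-BACexp mice they were 242.3, 286.9 and 315.0 CPM with EGFP-KASH only, 251.1 to 381.9 CPM with NTG (median 337.2) and 250.1 to 481.6 CPM with crRNA-13 (median 299.4). The genotypes overlapped in every treatment, and the lowest libraries were those of C57BL/6J mice. Without the factors the value was 0.29 (SE 0.14, adjusted p = 0.299), and without C57BL/6J crRNA-13 replicate 5 it was 0.23 (adjusted p = 0.103). The call was kept without the 2 libraries highest in striatal markers.

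The largest remaining value in the average was that of Erbb2, the shared co-receptor, at 0.46 (SE 0.21, adjusted p = 0.153). Its mean CPM was 0.981 ± 0.346 (SD, n = 5) in C57BL/6J NTG and 1.44 ± 0.393 (n = 6) in C9-BACexp NTG mice, with overlapping ranges of 0.706 to 1.45 and 0.793 to 1.85. With EGFP-KASH only it was 1.1 ± 0.552 (n = 4) and 1.76 ± 0.797 (n = 3), and with crRNA-13 1.44 ± 0.361 (n = 3) and 1.76 ± 0.749 (n = 6). Erbb4 differed by 0.05 (SE 0.09), Nrg3 by 0.09 (SE 0.05), Nrg1 by -0.13 (SE 0.06), Egfr by -0.20 (SE 0.11) and Nrg4 by -0.14 (SE 0.42). The adjusted p of these 5 lay between 0.176 and 0.865. The approximate 95% interval of the difference was -0.12 to 0.22 for Erbb4 and -0.96 to 0.68 for Nrg4.

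Levels of the interneuron receptor Erbb4 were 337.6, 423.5, 552.4 and 628.5 CPM with EGFP-KASH only, 371.6, 503.7, 767.3, 828.5 and 843.8 CPM with NTG and 460.2, 557.6 and 666.6 CPM with crRNA-13 in C57BL/6J mice. In C9-BACexp mice they were 548.3, 596.4 and 641.2 CPM with EGFP-KASH only, 542.9 to 727.6 CPM with NTG (median 619.3) and 431.8 to 687.1 CPM with crRNA-13 (median 507.8). The genotypes overlapped throughout, and C57BL/6J NTG held both the highest levels and one of the lowest. Egfr ran from 22.4 to 47.6 CPM in C57BL/6J NTG and from 24.1 to 33.5 CPM in C9-BACexp NTG libraries. With EGFP-KASH only its ranges were 23.0 to 45.2 and 22.2 to 36.9 CPM, and with crRNA-13 26.6 to 30.8 and 19.2 to 41.0 CPM.

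Group means of Nrg1, which has membrane-bound and secreted forms, lay between 2378.3 ± 170.3 CPM (SD, n = 6, C9-BACexp NTG) and 2849.3 ± 656.9 CPM (n = 4, C57BL/6J EGFP-KASH only), and those of Nrg3, a mainly neural ligand of Erbb4, between 2405.8 ± 337.4 (n = 4, C57BL/6J EGFP-KASH only) and 2904.4 ± 219.1 (n = 3, C9-BACexp EGFP-KASH only). The order of the groups differed between the 2 genes, and ranges of neighbouring groups overlapped in both. In the library highest in Erbb3, C9-BACexp crRNA-13 replicate 1, Nrg3 was at its lowest of all libraries, 1825.0 CPM, and Nrg1 was at 2038.6 CPM, the lowest of its group. Nrg4, a ligand of Erbb4 known best from fat tissue, ran from 0.403 to 12 CPM across C9-BACexp crRNA-13 libraries and from 1.18 to 9.58 CPM across C9-BACexp NTG libraries, and its group means were 3.13 to 4.58 CPM.

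To ask what the effector and the crRNA did, treatments were compared within each genotype. In C9-BACexp mice, none of the 7 was called for crRNA-13 against NTG, where 0.482% of genes were called. The largest value was that of Nrg4 (-0.47, SE 0.59, adjusted p = 0.764), and 1 of 7 had an unadjusted p under 0.05 (Erbb4, -0.28, SE 0.12, adjusted p = 0.260). Against EGFP-KASH only, where 0.910% of genes were called, none was called or had an unadjusted p under 0.05, and Nrg4 was again farthest from 0 (-0.91, SE 0.71, adjusted p = 0.575). For NTG against EGFP-KASH only, where 0.0322% of genes were called, the 7 lay between -0.45 and 0.19 with no unadjusted p under 0.05.

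In C57BL/6J mice, crRNA-13 against NTG, which the study read at stricter limits, called 0% of genes in edgeR and limma-trend and 183 genes in DESeq2 with 4 factors, with 2408 genes at an unadjusted p under 0.05. None of the 7 members was among the calls of any of the 3 tools, and their values ran from -0.47 (Nrg4, SE 0.76) to 0.56 (Erbb2, SE 0.38). The study did report differentially expressed genes for crRNA-13 against NTG in these mice. Its calls were not reproduced by the edgeR and limma-trend fits used here. NTG against EGFP-KASH only called 0% of genes in edgeR and limma-trend and 46 in DESeq2, with 1710 at an unadjusted p under 0.05. The member farthest from 0 there was Erbb4, at 0.44 (SE 0.15, unadjusted p = 0.00689, adjusted p = 0.497 in edgeR), and Nrg3 also had an unadjusted p under 0.05. For crRNA-13 against EGFP-KASH only, 0.404% of genes were called and none of the 7, with 1 of 7, Nrg3, at an unadjusted p under 0.05 (0.24, SE 0.09, adjusted p = 0.317). In neither limma-trend nor DESeq2 with 4 factors was any of the 7 called in a comparison between treatments.

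For crRNA-13 against EGFP-KASH only, the value of Erbb3 is likewise a description, since the same libraries make up the genotype differences it was chosen for. In C9-BACexp mice it was -0.33 (SE 0.13) in edgeR, and without factors the value was 0.03 (SE 0.54) in edgeR and -0.33 in limma-trend, which averages logs. Without C9-BACexp crRNA-13 replicate 1, the library at 55.9 CPM, it was -0.70, and without that library and the 2 highest in striatal markers it was -0.54. In C57BL/6J mice the value was 0.46 (SE 0.15), 0.28 (SE 0.58) without factors, and 0.74 without C57BL/6J EGFP-KASH only replicate 5. The oligodendrocyte markers had medians of -0.14 and 0.51 in the same comparisons, with 0 of 18 called by edgeR in either. Without factors these medians were 0.13 and 0.20. The values with NTG, as a description, were -0.16 (SE 0.11) for crRNA-13 against NTG and -0.17 (SE 0.13) for NTG versus EGFP-KASH only in the C9-BACexp genotype, and 0.63 (SE 0.14) and -0.17 (SE 0.13) in C57BL/6J mice. The first of these was 0.17 (SE 0.44) without factors.

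**Figure D5:**
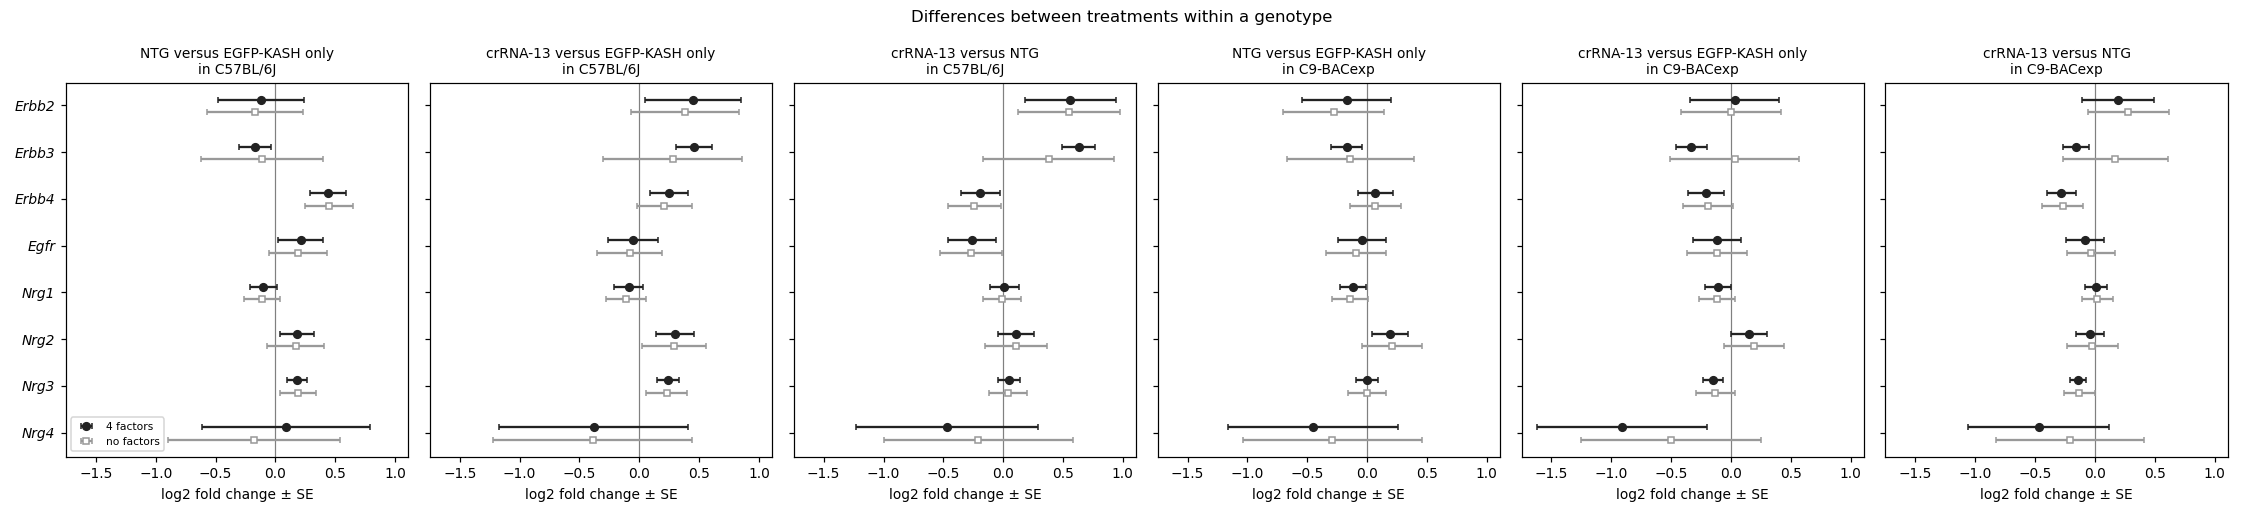
Log2 fold change ± SE of each gene between treatments within C57BL/6J (3 left panels) and C9-BACexp mice (3 right panels), from edgeR with 4 factors (filled) and with none (open). For Erbb3 in C9-BACexp mice the crRNA-13 values lie at -0.33 and -0.16 with the factors and at 0.03 and 0.17 without them.

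Whether the genotype difference itself differed between crRNA-13 and NTG was tested directly for the 7 others. None was called, where 0.00459% of genes were called in edgeR, and none had an unadjusted p under 0.05. The values lay between -0.37 (Erbb2, SE 0.49) and 0.18 (Egfr, SE 0.26), with adjusted p from 0.558 to 1.00. The oligodendrocyte markers had a median of -0.75 on this scale with 0 of 18 called, beside the -0.79 of Erbb3. Without the factors the marker median was -0.15, beside -0.22 (SE 0.71) for Erbb3.

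Genes around the receptors, a list of 63 genes for other ligands, shedding enzymes, receptor regulators, adaptors and the PI3K-Akt and Ras-MAPK arms, gave 60 genes that could be tested. With NTG, 5 were called higher and 4 lower, which is 15% of the list against 6.59% of all genes, and the median was 0.02, the same as over all genes. The calls with the smallest p included Gab1 (1.22, SE 0.15), a docking adaptor of receptor kinases, and Erbin (0.72, SE 0.11), an Erbb2-binding scaffold. The others called higher were the ligand gene Tgfa, Lrig3 of a family of receptor regulators, and Map2k2, a MAP kinase kinase, and those called lower included Pik3ca, a catalytic subunit of PI3K. These fall outside the 4 that were to be named by smallest p and were named after their values were seen. Without the factors none of the 60 was called with NTG, and 24 had an unadjusted p under 0.05 with them.

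With EGFP-KASH only, 3 were called higher, Gab1 (1.26, SE 0.19), Erbin (0.66, SE 0.13) and Lrig3 (1.56, SE 0.32), and 1 lower, which is 6.67% of the list against 2.86% of all genes. None of these was called without factors. With crRNA-13, 0 of 60 were called in edgeR, 8 had an unadjusted p under 0.05, and DESeq2 called 1. In the average over treatments, 4 were called higher, among them Gab1 (0.96, SE 0.10), Erbin (0.53, SE 0.07) and Lrig3 (0.99, SE 0.17), and 1 lower, which is 8.33% of the list against 9.76% of all genes. The fourth was Tgfa at 0.81 (SE 0.19), and 1 of the 5 was still called without factors, Lrig3 (adjusted p = 0.0399). Between treatments, only 1 gene was called in edgeR, Btc, a ligand of Egfr and Erbb4 with a mean of 1.59 CPM, which was higher with crRNA-13 than with NTG in C9-BACexp mice (1.80, SE 0.43, adjusted p = 0.0256, and 0.246 without factors). Btc was not called without NTG replicate 2, 4 or 5 of these mice. In the other 5 comparisons between treatments and in the difference between genotype differences, 0 of 60 were called in edgeR, with 5 to 12 at an unadjusted p under 0.05.

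The pathway genes were then set against the oligodendrocyte sum in the same way as the members, a step chosen after the calls had been seen. Within groups Gab1 (r = 0.97, rho = 0.95) and Erbin (r = 0.97, rho = 0.96) followed it about as closely as Erbb3 (both permutation p = 1.0e-05, the smallest possible; adjusted p = 2.0e-04 for r and 3.0e-04 for rho over 60 genes), and r was 0.96 for each without the 2 farthest libraries. Lrig3 (r = 0.83, rho = 0.81, permutation p = 2.0e-05 and 4.0e-05, adjusted p = 3.0e-04 and 4.0e-04, 0.87 without the 2) and Tgfa (r = 0.78, rho = 0.81, permutation p = 1.0e-05 and 2.0e-05, adjusted p = 2.0e-04 and 4.0e-04, 0.67 without the 2) followed it too. Pik3ca, lower in C9-BACexp mice with NTG, rose with the sum (r = 0.69, rho = 0.64, permutation p = 8.8e-04 and 0.0024, adjusted p = 0.00377 and 0.0096, 0.63 without the 2), and Map2k2, higher there, ran against it (r = -0.75, rho = -0.58, permutation p = 0.00119 and 0.0108, adjusted p = 0.00413 and 0.0232, -0.56 without the 2). Of the 60 genes, 26 rose and 9 fell with the sum at an adjusted p under 0.05 for r. The share of all genes that follow the sum in this way was not counted, so these counts are not particular to the pathway list.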

How the data were processed

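Gene values of 27 libraries were used, each from EGFP-KASH+ nuclei of 1 mouse. The deposited values are expected counts, which the authors made with Salmon 1.10.0 on spliced and unspliced transcripts (GRCm39 per the labels) and tximport in R 4.3.1, scaled from TPM by transcript length and library size and not normalized between libraries. The kit is stranded per the labels, and how strand entered the counting is not given in the sources used here. Spliced and unspliced RNA cannot be told apart in these values.

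Counts were rounded, filtered with filterByExpr (smallest count 10, smallest total 15), scaled by TMM and tested over 21768 genes with edgeR 4.0.16 (R 4.3.3; quasi-likelihood, robust setting). The model held the 6 groups plus 4 unwanted-variation factors, taken from the residuals of a first fit. The study used limma-trend with 4 RUVSeq factors, and taking them from residuals is an assumption. Benjamini-Hochberg adjustment covered the 3 genotype comparisons and both crRNA-13 comparisons of C9-BACexp mice together, and each remaining comparison alone. Called genes passed a fold change of 1.2 and an adjusted p of 0.05, or 1.25 and 0.01 when crRNA-13 and NTG were compared in C57BL/6J. SE is the log2 fold change over the square root of F. CPM used TMM library sizes. Relations used log2(CPM + 0.5) less the group mean, tested two-sided by 100000 permutations within groups. The fit was checked on simulated counts without shared unwanted variation, so the check does not cover the removal of such variation by the factors.

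Genes were named by a rule: all members, each called member, Erbb3 and the largest member per comparison, up to 4 called pathway genes with the smallest p, and the nearest genes (5 for Erbb3, 3 for others). Some genes that the rule names are not reported here. Members and lists were chosen with earlier results of these data known. Alternatives were other factors, filters, scalings, limma 3.58.1, DESeq2 1.42.0, a replicate block and leaving out each library. Replicate numbers recur between groups without a stated shared litter or batch and were not taken to pair mice. The labels give no batch. The p-values of the main fit measure the spread between mice that was left after the 4 factors. Comparisons with the same control group share those libraries.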

Additional observations from a re-analysis of the deposited data

Results flagged for a closer look

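Of 32 sets of values (8 genes in the 4 groups of at least 4 libraries), 4 held a library far from the others by Dixon's test at its 95% limit. Chance alone marks about 1 in 20 such sets.

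Erbb3 in C9-BACexp crRNA-13 replicate 1, at 55.9 CPM, stood above the next of its 6 libraries at 23.3 CPM, a gap of 0.671 of the group's range. The same library had the highest oligodendrocyte sum, 5854.9 CPM, and its ratio of Erbb3 to that sum, 9.55 per 1000 CPM, lay within the group's range of 6.90 to 9.62. Nrg2 in C9-BACexp crRNA-13 replicate 2 was at 481.6 CPM, with the next library at 329.4 CPM. Nrg4 in C9-BACexp crRNA-13 replicate 6 was at 12 CPM, with the next at 2.78 CPM. Egfr in C57BL/6J EGFP-KASH only replicate 4 was at 45.2 CPM, with the next of 4 libraries at 26.7 CPM.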

How the results depend on the processing

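Of the counts of other members called under an alternative, 440 stayed within 1.5 times the reported count and 11 did not. The averaged genotype call, Nrg2, was lost (0 called) with no factors in edgeR, limma-trend and DESeq2 and in the replicate block with 4 factors (0.26, adjusted p = 0.112) or with no factors (0.27), and the cause was not tested. One member (1) was called with EGFP-KASH only in DESeq2 with 4 factors. With 1 library left out, the counts ran from 0 to 1 for the average and for each of the 3 genotype comparisons.

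Pathway genes called with NTG (9) fell to 5 with 2 factors, to 1 in DESeq2 with no factors and to 0 in edgeR and limma-trend with no factors and in the replicate block with no factors. With EGFP-KASH only (4) they were 2 with 2 factors and 0 in all 4 fits with no factors. In the average (5) they were 3, 2, 1 and 0 in DESeq2, limma-trend, edgeR and the block with no factors. With crRNA-13 (0) they were 1 in DESeq2 and 2 in the replicate block with 4 factors. The Btc call (1) was 0 with 2 factors, with no factors in edgeR and limma-trend, in limma-trend with 4 factors, in the block with no factors and with p adjusted within the comparison. DESeq2 with 4 factors called 2 for NTG versus EGFP-KASH only among C9-BACexp mice and 1 for crRNA-13 versus EGFP-KASH only among C57BL/6J mice, where other size factors and a mean of at least 1 CPM also gave 1. Leaving out the 2 libraries highest in striatal markers, or these and the one highest in Erbb3, choices made after seeing the data, gave 2 and 1 for crRNA-13 versus EGFP-KASH only among C9-BACexp mice, where 0 were reported. With 1 library left out the pathway counts ran from 2 to 6 with EGFP-KASH only, from 7 to 10 with NTG, from 4 to 7 in the average, from 0 to 2 for crRNA-13 against NTG in C9-BACexp mice and for the difference between genotype differences, and from 0 to 1 for the genotype comparison with crRNA-13 and for crRNA-13 against EGFP-KASH only in both genotypes.

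The genotype differences of Erbb3 kept their sign in every setting, from 0.89 to 1.51 with NTG, 0.78 to 1.45 with EGFP-KASH only and 0.01 to 0.57 with crRNA-13 when 1 library was left out; with crRNA-13 it was 0.80 in the replicate block with 4 factors. Its treatment values turned. For crRNA-13 against NTG in C9-BACexp mice the value was 0.17 (edgeR), 0.18 (DESeq2) and 0.08 (replicate block) with no factors, and -0.53 to 0.04 with 1 library left out, above 0 without crRNA-13 replicate 3 (0.02) or 6 (0.04). Against EGFP-KASH only it was 0.03 in edgeR and DESeq2 with no factors. For NTG against EGFP-KASH only it was 0.02 without the libraries highest in striatal markers in C9-BACexp mice, and in C57BL/6J mice 0.01, 0.11 and 0.10 without EGFP-KASH only replicate 4 or 5 or NTG replicate 3 (range -0.55 to 0.11). Nrg4 for crRNA-13 against NTG in C9-BACexp mice was 0.05 without NTG replicate 3 (range -1.40 to 0.05). Between same-numbered libraries of different groups, 48 pairs had correlations from -0.20 to 0.36, 11 of them over 0.1, so the block is given only here. Over all genes, DESeq2 with 4 factors called 2254, 1292 and 588 with NTG, EGFP-KASH only and crRNA-13, against 1435, 623 and 235 in edgeR, and edgeR with no factors called 6, 4 and 4. In the average edgeR called 2125, and 349 with no factors. Counts were lowest for Erbb2 and Nrg4.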
